A study of Bos indicus with 9 samples.

Results

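The genes described here are those of glycolysis and of the cellular response to low oxygen, in the corpus luteum of cows given equine chorionic gonadotropin (eCG). A list of 49 genes was looked up by symbol in the array's probe table. It found 45 of them, on 71 probe sets, while HK2, PDK1, CA9 and ANKRD37 had no probe set of their own. ADM was found but its signal can be read in 2 ways, so it is described apart and 44 of the 9134 tested genes remain. Of these, 18 are glycolytic enzymes, 10 act in the control of glycolysis or at its branch points, 4 are glucose and lactate transporters, 4 sense oxygen and 8 are targets of hypoxia-inducible factor 1 (HIF1) outside glycolysis. A gene with several probe sets is represented by the one with the highest mean over the arrays.

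The study used crossbred Nelore cows (Bos indicus) between 2 and 5 years old, all of which, controls included, went through cycle synchronisation by means of estradiol benzoate and a device releasing progesterone. There were 3 control cows without eCG. The 3 stimulated cows had 400 IU of eCG on day 8 of the protocol and the 3 superovulated cows 2000 IU on day 4. Dose and day changed together and cannot be told apart. Corpora lutea were taken on day 6 after ovulation, and 1 Affymetrix bovine array was hybridised per animal. A whole corpus luteum holds many cell types, so fewer cells of a type and less RNA per cell cannot be told apart in these signals. Which corpus luteum of a superovulated cow was taken, and whether several were pooled, is not given in the sources used here.

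Glycolysis splits glucose into pyruvate in the cytosol and yields ATP without oxygen. Hexokinase, phosphofructokinase and pyruvate kinase catalyse its nearly irreversible steps, and lactate dehydrogenase turns pyruvate into lactate, which leaves the cell through monocarboxylate transporters. When oxygen is low, prolyl hydroxylases no longer mark the HIF alpha subunits for breakdown, and HIF then activates genes of most glycolytic steps together with genes outside the pathway, such as BNIP3, NDRG1, ADM and the collagen prolyl hydroxylases. The corpus luteum grows fast from a poorly vascularised follicle wall, and its early development is a known setting of HIF1 activity and vessel growth.

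Signals are given on a log2 scale. The scale is inferred from the range of the values, 0.85 to 15.36, because its base is not given in the sources used here. The deposited numbers had lost their decimal mark, which was put back as described under processing. For 19 of the 44 genes the mark had 1 possible place, for 6 it was settled by the other arrays, and for 19 bright genes with 2 possible places on all arrays it was settled by the spread between arrays. Of the 18 glycolytic enzymes 10 are of this last kind. For such a gene the other reading would divide every signal and difference by 10 and keep its direction. Because probes differ in how well they bind, each gene is compared only with itself. Luteal cell markers (8 genes, among them STAR, CYP11A1 and HSD3B1) had mean signals of 13.08 to 13.36 on the 9 arrays. These means overlapped between all groups. Of the 8 markers 7 had negative log2 fold changes in superovulated against control (median -0.07) and 7 in superovulated against stimulated (median -0.08). In stimulated against control 4 were negative and 4 positive. In superovulated animals 1 marker lay below all controls (12.5%, against 4.08% of all genes) and 1 above all stimulated animals (12.5%, against 7.15%). Superovulated replicate 2 had the lowest signal for 5 of the 8. In limma's moderated test 0 of them had an unadjusted p under 0.05 in any comparison. Correlations over probe sets were 0.987 to 0.994 between arrays of a group and 0.986 to 0.993 between groups.

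The enzymes of glycolysis had lower signals in stimulated and slightly higher signals in superovulated than in control corpora lutea. None of these differences passed the test. Of 8 HIF1 targets outside the pathway 4 had lower and 4 higher signals in stimulated than in control animals. In superovulated animals 7 of the 8 had higher signals than in control animals, and the targets varied between animals within groups. In limma's moderated test, adjusted by Benjamini-Hochberg over 23951 probe sets, 0 of the 44 genes had an adjusted p under 0.05 in any of the 3 comparisons or in the F test over the groups. The lowest adjusted p was 0.526 for stimulated against control, 0.801 for superovulated against control and 0.246 for superovulated against stimulated. At this level 0.00418% of all probe sets passed in the first and the last of these comparisons, 1 probe set in each, and 0 in the second.

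At an unadjusted p under 0.05, superovulated against stimulated corpora lutea had 10 of 44 genes higher, or 22.7%, against 4.86% of all genes tested. It had 2 lower, or 4.55%, against 4.18% of all genes. Stimulated against control had 6 lower, or 13.6%, against 3.08% of all genes, and 0 higher against 4.2%. Superovulated against control had 1 lower, or 2.27%, against 2.15%, and 0 higher against 3.13%. The F test had 6, or 13.6%, against 7.52% of all genes. By sign alone, 31 of 44 log2 fold changes were negative in stimulated against control, or 70.5%, where 50.8% of all genes were. In superovulated against control 30 were positive, or 68.2%, and in superovulated against stimulated 33 were, or 75.0%, where the share of all genes was 53.2% each time. Groups that did not overlap were counted over the 44 genes as well. Stimulated animals lay above the controls for 3 genes (6.82%, against 6.51% of all genes) and below them for 9 (20.5%, against 6.36%). Superovulated animals lay above the controls for 6 (13.6%, against 5.53%) and below them for 2 (4.55%, against 4.08%). They lay above the stimulated animals for 12 (27.3%, against 7.15%) and below them for 1 (2.27%, against 5.76%). With the replicate number as a block in superovulated against stimulated, the comparison in which same-numbered samples deviated together, its lower genes numbered 1 in place of 2. Without stimulated replicate 3 the 10 higher genes of that comparison became 6, and on probe sets without an open run they became 5. The 2 lower ones became 0 without stimulated replicate 3 or superovulated replicate 1, 3 without superovulated replicate 3 and 1 without any other single array. The 6 lower genes of stimulated against control became 1 without control replicate 3, and 3 without control replicate 2, stimulated replicate 3 or superovulated replicate 3, and the count of higher genes was 1 without control replicate 1, stimulated replicate 3 or superovulated replicate 1 or 3. Without the dimmest 25% of probe sets, or on those without an open run, the lower genes numbered 3. In superovulated against control 4 genes were higher without stimulated replicate 2 or superovulated replicate 1, 2 without stimulated replicate 1, and 1 without control replicate 2 or 3 or stimulated replicate 3. The 1 lower gene there, PDHB, was lost without control replicate 1 or 3, stimulated replicate 3 or superovulated replicate 1 or 2, and 2 genes were lower without stimulated replicate 2 or superovulated replicate 3. Both treated groups were compared with the same 3 controls, and the stimulated animals take part in 2 of the comparisons.

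Of the 18 glycolytic enzymes, 8 were among the 10 genes higher in superovulated than in stimulated corpora lutea at an unadjusted p under 0.05. They are HK1, PFKL, TPI1, GAPDH, PGAM1, PGAM2, ENO1 and PKM, from the first to the last kinase of the pathway. The groups did not overlap, with all superovulated animals above all stimulated ones, for 10 of the 18 enzymes, against 7.15% of all genes. The median log2 fold change of the 18 was 0.17, with 15 positive, beside a median of 0.01 over all genes. In stimulated against control the median was -0.14 with 16 negative, and the groups did not overlap for 7 enzymes, all lower, against 6.36% of all genes. In superovulated against control it was 0.06 with 13 positive and 0 at an unadjusted p under 0.05. There the groups did not overlap for HK1 and PKM, which were higher, against 5.53% of all genes, and for LDHB, which was lower, against 4.08%. On leaving out each array in turn these medians stayed between 0.15 and 0.21, between -0.16 and -0.11 and between 0.03 and 0.08.

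**Figure D1:**
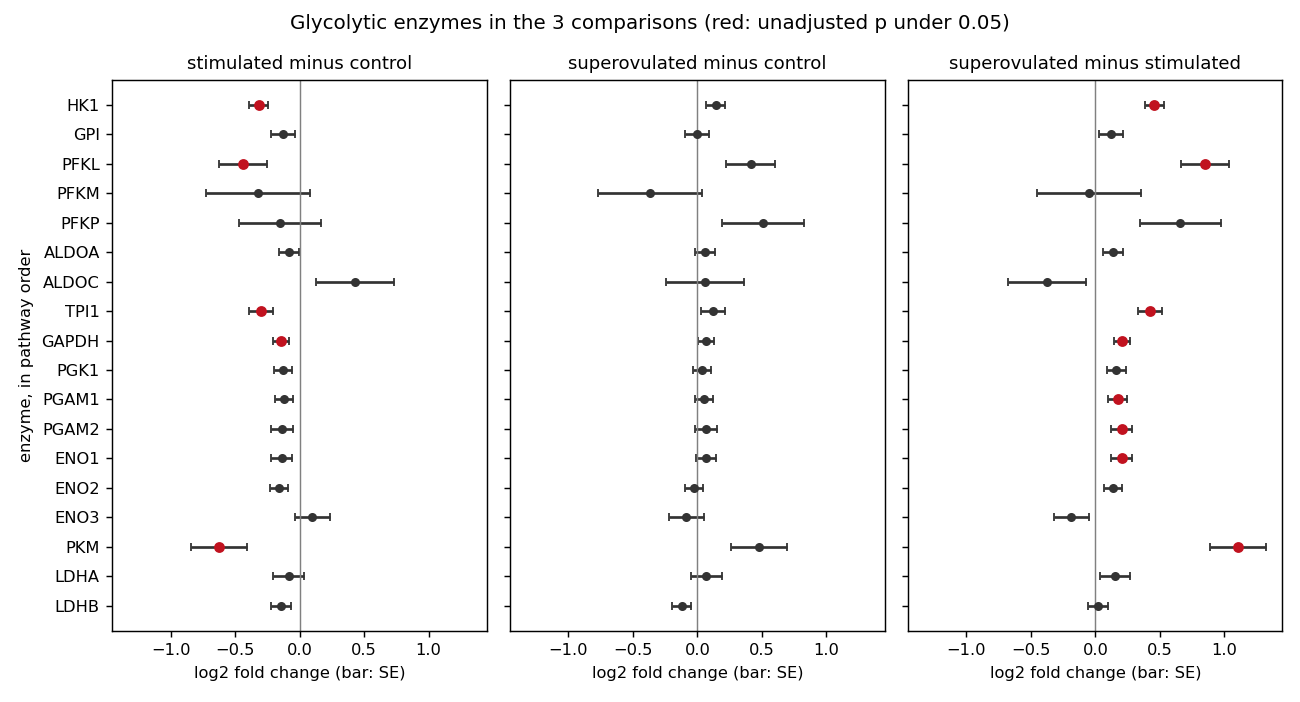
Log2 fold changes (horizontal axes, bars are standard errors) of the 18 glycolytic enzymes in pathway order from top to bottom, for stimulated minus control, superovulated minus control and superovulated minus stimulated; red points have an unadjusted p under 0.05. In the left panel 16 of 18 enzymes lie below 0, and in the right panel 15 of 18 lie above it, with PKM farthest at 1.103.

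HK1, a hexokinase that traps glucose in the cell, had signals of 10.45, 10.45 and 10.52 in control, 10.21, 10.24 and 10.02 in stimulated and 10.64, 10.60 and 10.60 in superovulated animals. All stimulated animals lay below all controls and all superovulated animals above them. On the log2 scale HK1 differed by -0.32 (SE 0.07, adjusted p = 0.526) in stimulated against control, 0.14 (SE 0.07, adjusted p = 0.822) in superovulated against control and 0.46 (SE 0.07, adjusted p = 0.246) in superovulated against stimulated. Leaving out single arrays kept the last value between 0.39 and 0.50. Differences between the groups made up 90.7% of the variation of HK1 over the 9 arrays, the highest share among the 44 genes.

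GPI, which converts glucose 6-phosphate to fructose 6-phosphate, differed less, at 12.17 ± 0.09 in control, 12.04 ± 0.06 in stimulated and 12.17 ± 0.15 in superovulated animals (mean ± SD, n = 3). Phosphofructokinase commits the sugar to glycolysis, and its 3 isoform genes differed in pattern. PFKL, the liver isoform, had 7.11, 7.45 and 7.71 in control, 6.92, 7.14 and 6.90 in stimulated and 7.57, 8.13 and 7.80 in superovulated animals. The treated groups did not overlap, while 1 control lay within the range of each and the last between them. Its log2 fold change between the treated groups was 0.85 (SE 0.19, adjusted p = 0.335), and it was 0.41 (SE 0.19, adjusted p = 0.809) in superovulated against control. PFKP, the platelet isoform, was also higher in all superovulated than in all stimulated animals, by 0.66 (SE 0.32, adjusted p = 0.563). PFKM, the muscle isoform, had -0.05 (SE 0.40), and its remaining probe sets had -0.10 and 0.01.

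Aldolase and triose phosphate isomerase produce and interconvert the triose phosphates. In superovulated against stimulated animals ALDOA differed by 0.14 on the log2 scale (SE 0.08, adjusted p = 0.609). ALDOC, an aldolase best known from brain, ran the other way. Its signals were 10.22, 9.41 and 9.37 in control, 10.38, 10.17 and 9.75 in stimulated and 10.02, 9.23 and 9.92 in superovulated animals, and all groups overlapped. For ALDOC the difference was 0.43 (SE 0.30, adjusted p = 0.875) in stimulated against control and -0.38 (SE 0.30, adjusted p = 0.725) in superovulated against stimulated. Without single arrays these ranged from 0.28 to 0.71 and from -0.55 to -0.13, the last without superovulated replicate 2. TPI1, the isomerase, had 12.54, 12.52 and 12.69 in control, 12.42, 12.23 and 12.19 in stimulated and 12.59, 12.83 and 12.69 in superovulated animals. Every stimulated animal lay below every animal of the other groups. The log2 fold change of TPI1 was -0.30 (SE 0.10, adjusted p = 0.697) against control and 0.42 (SE 0.10, adjusted p = 0.339) between the treated groups.

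The later steps of the pathway are those in which ATP is formed. GAPDH, which oxidises glyceraldehyde 3-phosphate and often serves as a reference gene, had 13.90, 13.84 and 13.91 in control, 13.79, 13.74 and 13.69 in stimulated and 13.89, 14.005 and 13.95 in superovulated animals. The stimulated animals again lay below all others. Its log2 fold change was -0.14 (SE 0.06, adjusted p = 0.778) in stimulated against control, 0.07 (SE 0.06, adjusted p = 0.895) in superovulated against control and 0.21 (SE 0.06, adjusted p = 0.415) between the treated groups. The array also carries 3 control probe sets for GAPDH, which are not among the tested ones. Their differences between superovulated and stimulated animals were 0.12, 0.11 and 0.19 in the same direction, and for 2 of the 3 the groups did not overlap. In stimulated against control the differences were smaller for 2 of the 3, at -0.04 and -0.08 with overlapping groups. The last had -0.14, with the stimulated animals below the controls.

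PGK1, which forms the first ATP of the pathway, had 0.16 (SE 0.07, adjusted p = 0.529) between the treated groups. PGAM1, a mutase, had 0.17 (SE 0.07, adjusted p = 0.509), and ENO1, an enolase, had 0.20 (SE 0.08, adjusted p = 0.489). For these 3 genes every superovulated animal lay above every stimulated one. PGAM2 and ENO2, isoforms best known from muscle and neurons, were dim, with 44.3% and 8.44% of probe sets below them in mean signal. ENO3, the muscle enolase, had 3.94, 3.75 and 3.87 in control, 4.04, 3.92 and 3.90 in stimulated and 3.68, 3.55 and 4.07 in superovulated animals. Its groups overlapped, and the treated groups differed by -0.19 (SE 0.13, adjusted p = 0.691), with -0.34 without superovulated replicate 3 and -0.08 without superovulated replicate 2.

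PKM, the pyruvate kinase of most tissues, had the largest difference of the enzymes. Its signals were 8.08, 8.01 and 8.19 in control, 7.10, 7.92 and 7.40 in stimulated and 8.42, 8.90 and 8.40 in superovulated animals. As for HK1, the stimulated animals lay below and the superovulated animals above the range of the controls. Genes with this arrangement numbered 16 among all 9134, or 0.175%, and HK1 and PKM were the 2 among the 44. The log2 fold change of PKM was -0.63 (SE 0.22, adjusted p = 0.716) in stimulated and 0.48 (SE 0.22, adjusted p = 0.809) in superovulated against control animals. Between the treated groups it was 1.103 (SE 0.22, adjusted p = 0.318), with 0.92 to 1.33 on leaving out single arrays.

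Lactate dehydrogenase showed no single direction. LDHA, the subunit that HIF1 is known to induce, had 12.11, 12.25 and 12.22 in control, 12.13, 12.34 and 11.86 in stimulated and 12.31, 12.20 and 12.28 in superovulated animals, with all groups overlapping. Its log2 fold change between the treated groups was 0.15 (SE 0.12, adjusted p = 0.713). The other probe sets of LDHA disagreed, with 0.88 (SE 0.32, adjusted p = 0.471) for one and -0.18 (SE 0.21, adjusted p = 0.819) for the other. The former is bright, with 95.7% of probe sets below it, and had an unadjusted p of 0.026 in limma's moderated test. On it all superovulated animals lay above all stimulated ones, while on the latter these groups overlapped. In stimulated against control the 3 probe sets had -0.08, -0.39 and 0.19. LDHB, the subunit that favours lactate use, had 13.86, 13.64 and 13.66 in control, 13.59, 13.63 and 13.51 in stimulated and 13.57, 13.58 and 13.64 in superovulated animals. All controls lay above all treated animals by a narrow margin, and the log2 fold change in superovulated against control was -0.12 (SE 0.08, adjusted p = 0.846).

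**Figure D2:**
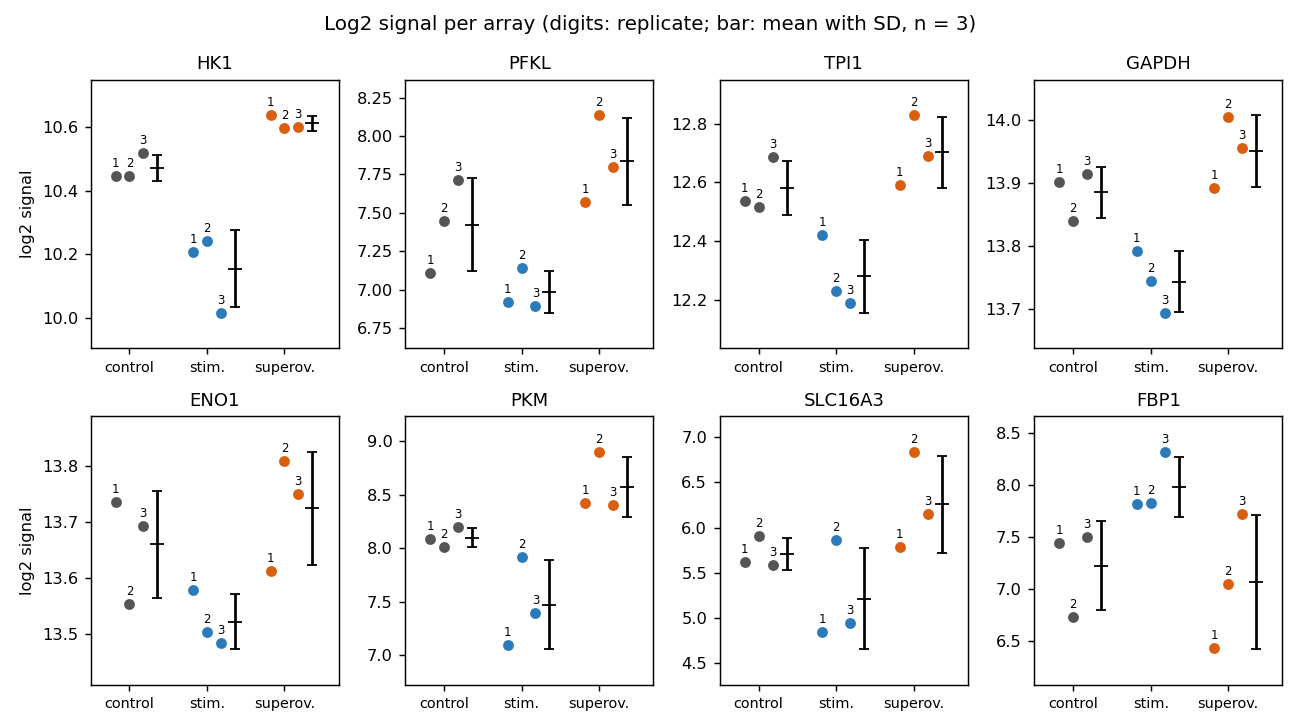
Log2 signals per array (vertical axes, a separate range for each gene) of HK1, PFKL, TPI1, GAPDH, ENO1, PKM, SLC16A3 and FBP1 in control, stimulated and superovulated animals; digits are replicate numbers and the bars show the mean with its SD (n = 3). For the 6 enzymes every superovulated animal lies above every stimulated one, SLC16A3 overlaps through stimulated replicate 2, and FBP1 runs the other way.

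The genes that control glycolysis or sit at its branch points did not follow the enzymes. Of the 10 tested, 5 were positive and 5 negative in stimulated against control, and their median log2 fold changes were 0.02 there, -0.06 in superovulated against control and 0.03 between the treated groups. FBP1, a gluconeogenic enzyme that reverses the phosphofructokinase step, had 7.44, 6.74 and 7.501 in control, 7.81, 7.82 and 8.32 in stimulated and 6.43, 7.05 and 7.72 in superovulated animals. The stimulated animals lay above all others, the mirror image of their place for TPI1 and GAPDH. The log2 fold change of FBP1 was 0.76 (SE 0.34, adjusted p = 0.782) in stimulated against control and -0.92 (SE 0.34, adjusted p = 0.482) in superovulated against stimulated.

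The PFKFB enzymes set the level of fructose 2,6-bisphosphate, an activator of phosphofructokinase. PFKFB3, an isoform with strong kinase activity, had 6.88, 6.90 and 6.06 in control, 6.61, 8.15 and 6.47 in stimulated and 7.19, 7.93 and 7.24 in superovulated animals. Superovulated animals lay above all controls, but the stimulated group held the highest single value. Its log2 fold change in superovulated against control was 0.84 (SE 0.47, adjusted p = 0.832). Its dimmer probe sets had -0.14, with all superovulated animals below the controls, and 0.14. PFKFB1 was dim, with 13.2% of probe sets below it. It had 2.43, 2.45 and 2.39 in control, 2.31, 2.12 and 2.31 in stimulated and 2.31, 2.22 and 2.31 in superovulated animals, so that both treated groups lay below the controls. Its log2 fold change was -0.18 (SE 0.07, adjusted p = 0.774) in stimulated and -0.14 (SE 0.07, adjusted p = 0.817) in superovulated against control. PFKFB4 had 3.24, 3.13 and 3.33 in control, 3.12, 2.89 and 3.23 in stimulated and 3.16, 3.12 and 3.06 in superovulated animals, with overlapping groups, and -0.12 (SE 0.10, adjusted p = 0.875) in superovulated against control. PFKFB2 had no group apart, with log2 fold changes of -0.29 to 0.16.

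Pyruvate dehydrogenase carries pyruvate into the mitochondrial citric acid cycle, and its kinases switch it off. PDHB, a subunit of the complex, had 12.31, 12.05 and 12.30 in control, 12.38, 12.08 and 12.14 in stimulated and 11.60, 11.77 and 12.14 in superovulated animals. A pair of superovulated animals lay below all others, while the last one fell among them. On average they differed by -0.38 (SE 0.15, adjusted p = 0.801) from control and by -0.36 (SE 0.15, adjusted p = 0.514) from stimulated animals on the log2 scale. The other probe sets of PDHB were dim, and the mean over all its probe sets gave -0.14 for the latter difference. PDHA1, the catalytic alpha subunit, had 0.12 (SE 0.16), 0.03 (SE 0.16) and -0.08 (SE 0.16) in the 3 comparisons. PDK4, a kinase induced by fasting and glucocorticoids, varied more between animals than between groups, with 11.21, 11.65 and 9.53 in control, 10.71, 11.85 and 9.99 in stimulated and 10.76, 11.29 and 10.81 in superovulated animals. Group differences made up 0.78% of its variation. The highest value in each group was that of replicate 2. PDK2 and PGM1, which links glycolysis to glycogen, had log2 fold changes between -0.14 and 0.17.

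All 4 transporters had negative log2 fold changes in stimulated against control and positive ones in superovulated against stimulated corpora lutea, at medians of -0.25 and 0.20. SLC16A3, which encodes the lactate exporter MCT4 and is a HIF1 target, had 5.62, 5.91 and 5.59 in control, 4.84, 5.86 and 4.94 in stimulated and 5.78, 6.84 and 6.15 in superovulated animals. Stimulated replicate 2 reached into both other groups, and the remaining stimulated animals lay below them. Between the treated groups SLC16A3 differed by 1.04 on the log2 scale (SE 0.33, adjusted p = 0.443). The other probe sets of SLC16A3 were dim and had 0.16 and 0.22. SLC16A1, the transporter MCT1, had 8.87, 8.75 and 8.84 in control, 8.77, 8.11 and 8.45 in stimulated and 8.21, 9.12 and 8.98 in superovulated animals. Superovulated replicate 1 fell among the stimulated ones, and the log2 fold change between these groups was 0.32 (SE 0.25, adjusted p = 0.714). SLC2A1, the glucose carrier GLUT1, had 10.33, 10.20 and 10.20 in control, 10.17, 9.66 and 10.48 in stimulated and 10.03, 10.03 and 10.29 in superovulated animals. The stimulated group held both its highest and its lowest value, and its log2 fold change was -0.13 (SE 0.19), -0.12 (SE 0.19) and 0.01 (SE 0.19) in the 3 comparisons. SLC2A3, the carrier GLUT3, was near the dim end, with 7.27% of probe sets below it.

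Among the oxygen-sensing genes, HIF1A encodes the regulated subunit of HIF1, which is controlled mainly through protein stability. It had 13.89, 13.90 and 13.90 in control, 13.75, 13.85 and 13.75 in stimulated and 14.05, 13.89 and 13.86 in superovulated animals. Stimulated animals lay below all others by a narrow margin, differing by -0.11 (SE 0.07, adjusted p = 0.864) from control, and by 0.15 (SE 0.07, adjusted p = 0.551) for superovulated against stimulated. EPAS1, which encodes HIF2 alpha and is abundant in endothelium, had 12.91, 13.49 and 13.49 in control, 13.06, 13.42 and 13.39 in stimulated and 13.21, 13.21 and 13.29 in superovulated animals. Its groups overlapped throughout, with differences between -0.06 and 0.00, and a dimmer probe set of EPAS1 had 0.24 (SE 0.45) between the treated groups. EGLN3, a prolyl hydroxylase that HIF itself induces, had 2.04, 2.04 and 1.77 in control, 1.80, 2.26 and 1.87 in stimulated and 2.23, 2.29 and 2.17 in superovulated animals. Superovulated animals lay above all controls, at 0.28 (SE 0.13, adjusted p = 0.809), but only 5.9% of probe sets had a lower mean signal than EGLN3. EGLN1, the main oxygen sensor of most cells, had 0.13 (SE 0.08, adjusted p = 0.856) in that comparison, and its other probe sets had -0.08 (SE 0.10) and 0.23 (SE 0.20).

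The 8 HIF1 targets outside glycolysis had median log2 fold changes of 0.08 in stimulated against control, 0.11 in superovulated against control and 0.06 between the treated groups, with 4, 7 and 5 of the 8 positive. Without single arrays these medians ranged from -0.03 (without stimulated replicate 2) to 0.17, from 0.06 to 0.20 and from 0.02 to 0.15. At an unadjusted p under 0.05, 1 of them was higher, ERO1A in superovulated against stimulated animals (12.5%, against 4.86% of all genes). NDRG1, a stress-response gene widely used as a marker of hypoxia, had 7.93, 8.06 and 8.42 in control, 7.72, 9.07 and 8.21 in stimulated and 8.55, 10.003 and 8.86 in superovulated animals. All superovulated animals exceeded the controls, and the animal with the highest value was superovulated replicate 2. Against control the difference of NDRG1 was 1.003 (SE 0.44, adjusted p = 0.807), and 0.57 without that animal. ERO1A, an oxidase of protein folding, had 3.63, 4.05 and 3.87 in control, 3.64, 3.56 and 3.72 in stimulated and 3.87, 3.97 and 3.95 in superovulated animals. Its treated groups did not overlap, at 0.29 (SE 0.11, adjusted p = 0.474), and the controls overlapped with each of them. A second, dimmer probe set of ERO1A had -0.02.

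BNIP3, a mitochondrial protein of cell death and mitophagy, had 10.96, 11.04 and 10.80 in control, 11.11, 11.12 and 11.09 in stimulated and 10.999, 11.56 and 11.12 in superovulated animals. Stimulated animals lay above all controls, opposite to the enzymes, at 0.18 (SE 0.14, adjusted p = 0.884). DDIT4, an inhibitor of the growth kinase mTORC1, had 13.37, 13.26 and 13.35 in control, 13.66, 13.48 and 13.40 in stimulated and 13.52, 13.39 and 13.48 in superovulated animals. Both treated groups lay above the controls, at 0.18 (SE 0.08, adjusted p = 0.782) in stimulated and 0.14 (SE 0.08, adjusted p = 0.847) in superovulated animals. P4HA1 and P4HA2, hydroxylases of collagen, had 0.16 (SE 0.28) and -0.28 (SE 0.29) in stimulated against control and -0.07 (SE 0.28) and 0.57 (SE 0.29) between the treated groups. BNIP3L, a relative of BNIP3, had differences of 0.00 in all 3 comparisons (SE 0.09). MXI1, an antagonist of MYC, had -0.02, -0.22 and -0.21 (SE 0.47).

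ADM encodes the vasodilator adrenomedullin. Its signals have 2 possible readings on every array, and its spread gave the brighter one a probability of 0.91, below the 0.95 required here. Read as bright, they were 10.75, 10.68 and 10.95 in control, 11.10, 12.24 and 11.57 in stimulated and 10.45, 11.88 and 12.35 in superovulated animals. Under either reading all stimulated animals lay above the controls, and the superovulated group held both the lowest and the highest value. The log2 fold change of the bright reading was 0.84 (SE 0.48, adjusted p = 0.844) in stimulated against control, and that of the dim reading 0.08 (SE 0.07, adjusted p = 0.884).

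**Figure D3:**
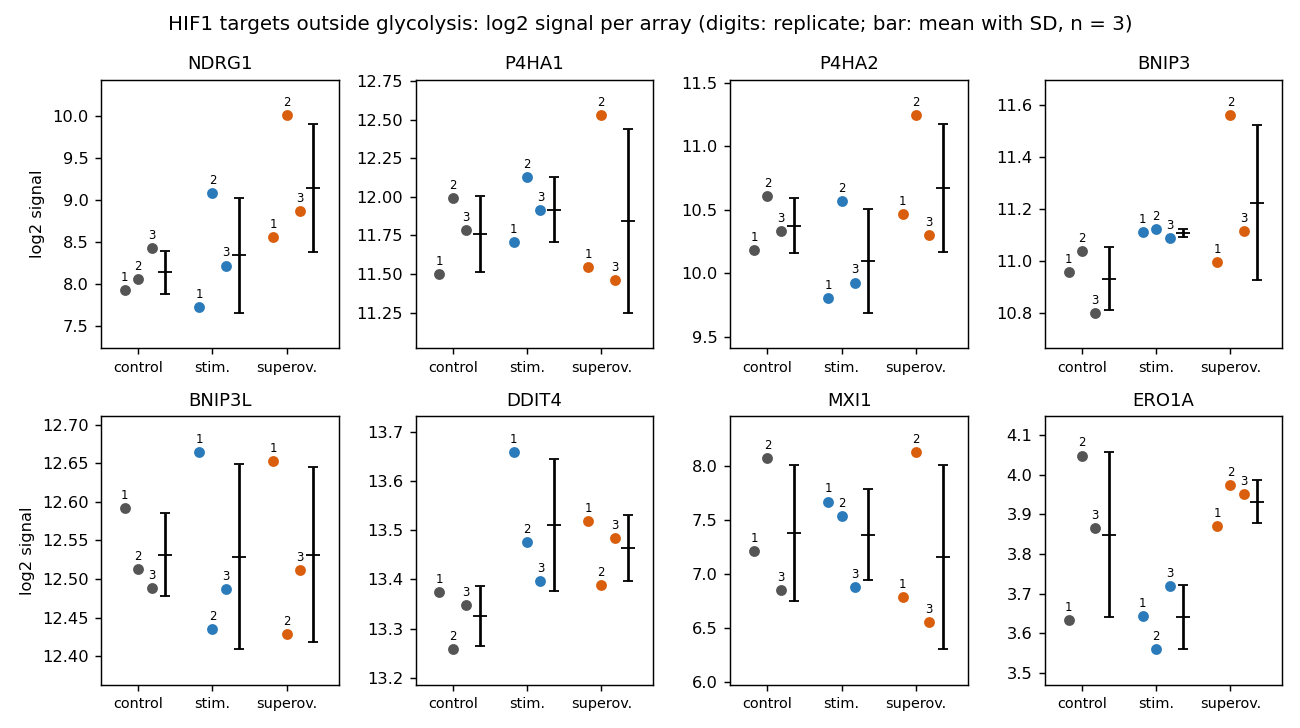
Log2 signals per array (vertical axes, a separate range for each gene) of the 8 HIF1 targets outside glycolysis; digits are replicate numbers and the bars show the mean with its SD (n = 3). Superovulated replicate 2 is the highest of all 9 arrays for NDRG1, P4HA1, P4HA2, BNIP3 and MXI1, and DDIT4 has both treated groups above the controls.

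The variation of the enzymes lay more between groups and that of the HIF1 targets more within them, a contrast that has no test here. Superovulated replicate 2 was the highest of the 9 arrays for 5 of the 8 HIF1 targets, or 62.5%, while it was the highest for 15.6% of all genes. This was not particular to the HIF1 targets. That array was also the highest for 8 of the 18 enzymes, or 44.4%, and for 3 of the 4 transporters, or 75%. With each gene centred on its own mean, the median of the HIF1 targets was 0.58 on that array and between -0.15 and 0.11 on the others, and all groups overlapped. The same median over the glycolytic enzymes was 0.03, -0.01 and 0.07 on the control arrays, -0.06, -0.11 and -0.16 on the stimulated and 0.06, 0.08 and 0.14 on the superovulated arrays. Stimulated arrays lay below all others, and the superovulated arrays overlapped the controls. The lowest of the 9 signals was that of a stimulated animal for 15 of the 18 enzymes, 11 of them in stimulated replicate 3. Over all genes it was a stimulated animal in 34.8% and that animal in 11.2%.

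**Figure D4:**
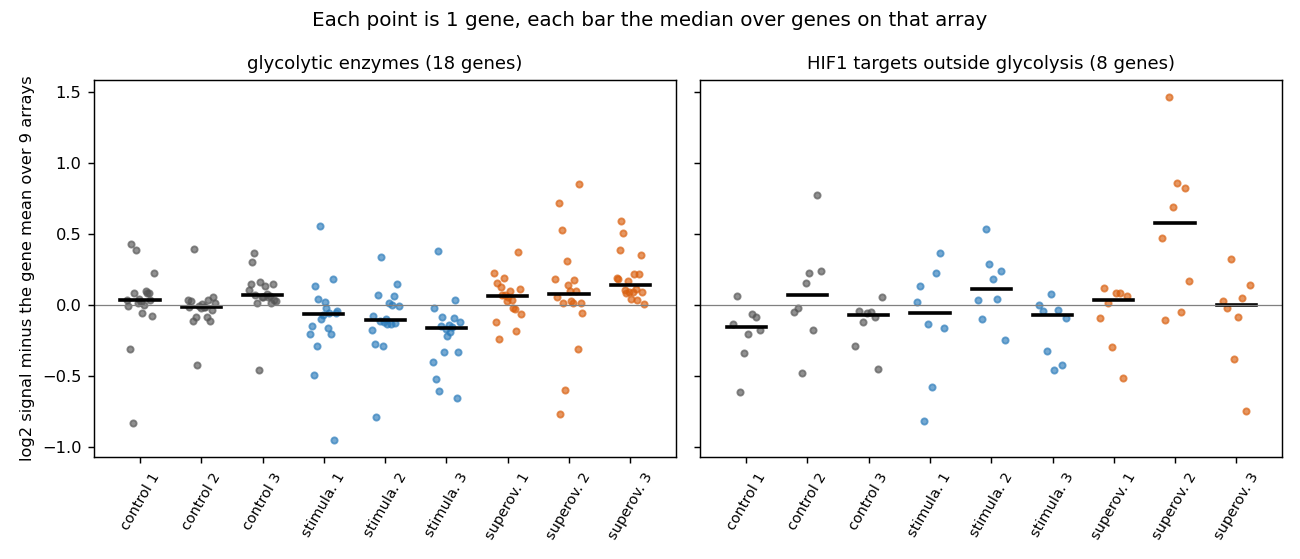
Log2 signal minus each gene's mean over the 9 arrays (vertical axis), for the 18 glycolytic enzymes on the left and the 8 HIF1 targets outside glycolysis on the right; each point is a gene on that array and each black bar the median over genes. The medians of the enzymes lie between -0.16 and -0.06 on the stimulated arrays, and the median of the HIF1 targets stands at 0.58 on superovulated replicate 2.

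Differences between the groups made up a median of 55.8% of the variation of the glycolytic enzymes, 36.4% of that of the HIF1 targets and 24.6% over all genes. The medians were 22.8% for the control and branch point genes, 27.9% for the transporters and 38.7% for the oxygen-sensing genes. HK1, GAPDH, TPI1, PKM and PFKL had the 5 highest shares, from 73.9% to 90.7%. At the other end, BNIP3L, PDK4, EPAS1, MXI1 and P4HA1 had shares under 5%. The difference between the medians of enzymes and HIF1 targets was -0.22 on the log2 scale in stimulated against control, -0.05 in superovulated against control and 0.11 between the treated groups. Without single arrays it ranged from -0.32 (without control replicate 2) to -0.13 (without stimulated replicate 2), from -0.16 (without control replicate 2) to 0.01 (without superovulated replicate 2) and from 0.01 (without superovulated replicate 3) to 0.16.

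**Figure D5:**
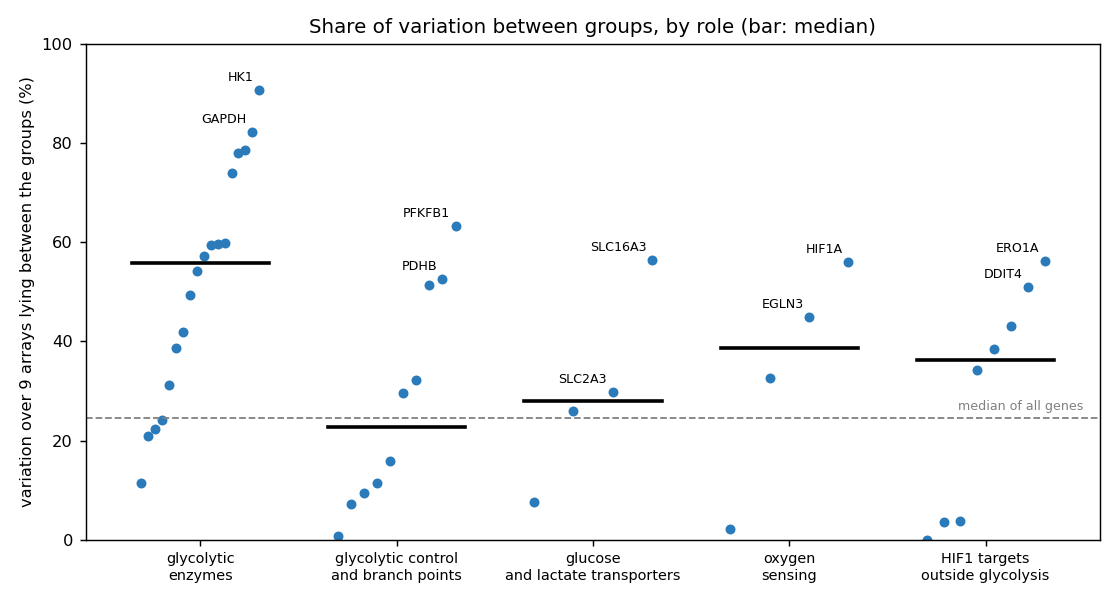
Share of each gene's variation over the 9 arrays that lies between the 3 groups (vertical axis, percent), with genes set side by side within their role; black bars are medians and the dashed line is the median of all genes tested, 24.6%. HK1 is highest at 90.7%, and the median of the glycolytic enzymes, 55.8%, lies above those of the other roles.

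Genes of neighbouring pathways were taken from separate lists. Of 48 other genes of glucose metabolism, which cover gluconeogenesis, the pentose phosphate pathway, glycogen and pyruvate use, 36 were tested and 0 passed in any comparison. At an unadjusted p under 0.05, 1 was higher (2.78%, against 4.2% of all genes) and 3 lower (8.33%, against 3.08%) in stimulated against control. In superovulated against control 2 were higher (5.56%, against 3.13%) and 0 lower (against 2.15%), and between the treated groups 3 were higher (8.33%, against 4.86%) and 0 lower (against 4.18%). MPC1, a subunit of the mitochondrial pyruvate carrier, had 11.49, 11.49 and 11.86 in control, 11.34, 11.04 and 11.23 in stimulated and 11.55, 11.59 and 11.52 in superovulated animals. Its stimulated animals lay below all others, as for TPI1, at -0.41 (SE 0.12, adjusted p = 0.644) against control and 0.35 (SE 0.12, adjusted p = 0.454) between the treated groups. G6PC3, a glucose 6-phosphatase, had -0.41 (SE 0.16, adjusted p = 0.773) in stimulated against control. PDP1, the phosphatase that reactivates pyruvate dehydrogenase, had 0.30 (SE 0.11, adjusted p = 0.797) in superovulated against control, and the dim hexokinase HK3 had 0.21 (SE 0.08, adjusted p = 0.799).

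Of 44 other genes of the HIF pathway 32 were tested and 0 passed. At an unadjusted p under 0.05, 1 was higher (3.12%, against 4.2% of all genes) and 4 lower (12.5%, against 3.08%) in stimulated against control. In superovulated against control 3 were higher (9.38%, against 3.13%) and 3 lower (9.38%, against 2.15%), and between the treated groups 4 were higher (12.5%, against 4.86%) and 3 lower (9.38%, against 4.18%). TFRC, the transferrin receptor, had 5.06, 5.00 and 5.20 in control, 4.84, 4.17 and 4.01 in stimulated and 5.44, 5.51 and 5.87 in superovulated animals, the same arrangement as PKM. Its log2 fold change between the treated groups was 1.26 (SE 0.22, adjusted p = 0.272). TMEM45A, a membrane protein induced by hypoxia, had 1.102 (SE 0.29, adjusted p = 0.378) in that comparison. In superovulated against control, VEGFA, the vessel growth factor and a classic HIF1 target, had -0.61 (SE 0.13, adjusted p = 0.639). JMJD6, a hydroxylase, had 0.47 (SE 0.13, adjusted p = 0.721) there. NOS2, the inducible nitric oxide synthase, had -1.74 (SE 0.44, adjusted p = 0.563) in stimulated against control, and PLOD1, which hydroxylates lysines of collagen, had 0.23 (SE 0.06, adjusted p = 0.617).

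Markers of other cell types also differed between the groups. Some had their lowest mean signal in stimulated animals, like the enzymes, and some their highest there. Of 5 neutrophil markers 4 were tested, and their mean signal was 6.57 to 8.03 in control, 5.29 to 6.18 in stimulated and 7.22 to 8.28 in superovulated animals, with the stimulated animals below all others. Their median log2 fold change was 2.16 between the treated groups, 3 of the 4 being higher at an unadjusted p under 0.05, against 4.86% of all genes. The granule enzyme MPO, the fourth, had signals of 2.42 to 2.81, with 22.1% of probe sets below it. Macrophage and monocyte markers (8 of 9 tested) were highest on average in stimulated animals. Their mean signals were 4.77 to 6.06 in control, 6.38 to 7.61 in stimulated and 5.94 to 7.22 in superovulated animals. At an unadjusted p under 0.05, 6 of the 8 were higher in stimulated against control (75%, against 4.2% of all genes). In superovulated against control 3 were higher (37.5%, against 3.13%). Between the treated groups 2 were lower (25%, against 4.18%), and 1 of the 8 had a positive log2 fold change. T and NK cell markers (6 of 6 tested) had mean signals of 2.95 to 3.29 in control, 3.34 to 4.21 in stimulated and 2.98 to 3.44 in superovulated animals, with 6 positive log2 fold changes in stimulated against control and 6 negative ones between the treated groups. Pericyte and smooth muscle markers (7 of 7 tested) had 7 positive log2 fold changes between the treated groups, with a median of 0.38, and their mean signals overlapped. Endothelial markers (8 of 8 tested) had 8 positive log2 fold changes in stimulated and 6 in superovulated against control, and their mean signals overlapped. Markers of proliferating cells (5 of 7 tested) had 5 negative log2 fold changes in each treated group against control, 0 of them at an unadjusted p under 0.05. Fibroblast markers (5 of 5 tested) had mean signals of 12.97 to 13.59 on 8 arrays and 13.87 on superovulated replicate 2, where the HIF1 targets also stood highest. As a sign of RNA quality, the 3' control signal of GAPDH minus its 5' control signal averaged -0.05 in control, -0.02 in stimulated and -0.01 in superovulated animals. All stimulated animals lay above the controls in this difference, by a narrow margin. In the same order it averaged -0.33, -0.36 and -0.40 for actin and -1.83, -1.68 and -1.70 for EF1A, with all groups overlapping. The part of these cell types and of RNA quality in the values above was not tested.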

How the data were processed

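The value table deposited by the authors holds 24128 probe sets, 112 of them array controls, on 9 Affymetrix bovine arrays. Its values are in no standard unit, because each deposited number is a run of digits without its decimal mark. How probes were summarised and arrays normalised, and the log base, is not given in the sources used here. Runs that begin with 0 or 2 to 9 have 1 possible reading under a limit of 16. Runs beginning with 1 can be 1.x or 1x.x unless the latter reaches that limit, and 15.5% of runs were open in this way. In 19509 probe sets none was open, in 1588 the other arrays settled them, and those with 9 open runs were placed from the variation between arrays at a posterior of 0.95 (2951 as 1x.x, 13 as 1.x, 2.96 wrong readings expected). A further 67 stayed undecided, 65 of them not controls, and were left out. No further normalisation was applied. Arrays have no read depth, and precision is limited by their number.

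The probe table supplied the gene symbols (13292 probe sets with 1 symbol, 86 with several, 10638 with none). Of its 9155 symbols 8550, and 48 of the 49 listed genes, also stand in the RefSeq table of NIAB-ARS_B.indTharparkar_mat_pri_1.0, used for names alone. No sequences or coordinates are given.

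The 23951 remaining probe sets were fitted with limma 3.58.1 (lmFit and eBayes, R 4.3.3), estimating a mean for each group from all 9 arrays, which leaves 6 residual degrees of freedom. The 2-sided tests had Benjamini-Hochberg adjustment over all of them and a threshold of 0.05. Tested on simulated data for superovulated against stimulated, the same steps on 23951 probe sets recovered 68 of 100 changed by 1 and 91 of 100 changed by 2 on the log2 scale, with 10 false calls. The simulated noise was normal and independent between probe sets. Changes smaller than 1, the size of most differences described here, were not simulated, so their recovery is not known. Samples of a number deviated together in all 3 pairs of stimulated and superovulated animals (correlations 0.20, 0.38 and 0.15), so the number was taken to pair the samples there. Pairs of these groups with unlike numbers had -0.26 to 0.08. However, control replicate 1 and superovulated replicate 3, also unlike in number, had 0.25, so such correlations do not establish a pairing. Against control 1 same-numbered pair of each treated group was under 0.1, and the number was not taken to pair those samples. The fit with the number as a block, an alternative, was run for all 3 comparisons. Standard errors and p values in the results come from the fit without it, also for superovulated against stimulated. The labels give no meaning to the numbers beyond biological replicate.

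Values of every array are given, per comparison and direction, for the 4 genes with the smallest p, for the 2 with the smallest F test p in each of the 5 roles, and for SLC2A1, GAPDH, LDHA, PDK4, HIF1A and EPAS1. Other genes of the pathways are the 2 with the smallest p per comparison and list. PFKFB3 and ADM are shown by array beyond that rule, chosen after their values were seen. The members, the lists and the rule were chosen with earlier results of these data known, so lists are described by counts and medians without a test. Alternatives tried were quantile normalisation, leaving out the lowest 25% of probe sets by mean signal, the mean over a gene's probe sets, probe sets without an open run, the replicate block, eBayes with trend and robust options, and leaving out each array.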

Additional observations from a re-analysis of the deposited data

Results flagged for a closer look

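HK1 and PKM, the kinases at the start and the end of glycolysis, had all 3 stimulated animals below and all 3 superovulated animals above the range of the controls. Their log2 fold changes in superovulated against stimulated animals were 0.46 for HK1 and 1.103 for PKM. The difference between the treated groups was tested with limma and did not pass, at adjusted p values of 0.246 and 0.318 (0.231 to 0.494 and 0.190 to 0.637 over the alternatives). The same arrangement was found for 16 of 9134 genes. Because each treated group was compared with the same 3 controls, the 2 comparisons with control are not independent.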

How the results depend on the processing

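The count of genes passing at an adjusted p under 0.05 was 0 in every comparison and in the F test under all alternatives run. Counts at an unadjusted p under 0.05 moved. In stimulated against control the higher genes (0) numbered 1 under quantile normalisation, 1 with trend and robust options and 2 with the replicate block, and 0 to 1 on leaving out single arrays. The lower genes (6) numbered 3 without the dimmest 25% of probe sets, 3 on probe sets without an open run, and 1 to 6 on leaving out single arrays. In superovulated against control the higher genes (0) numbered 6 with the replicate block, 2 with trend and robust options and 0 to 4 without single arrays, and the lower (1) 0 on probe sets without an open run, 2 with trend and robust options and 0 to 2 without single arrays. In superovulated against stimulated the higher genes (10) numbered 5 on probe sets without an open run, which leaves out most bright enzymes, 10 with the replicate block and 6 to 14 without single arrays. The lower (2) numbered 1 without the dimmest 25% of probe sets, with the mean over probe sets, on probe sets without an open run and with the replicate block, and 0 to 3 without single arrays. The block changed no other call. Of 612 values of named genes under alternatives, 590 kept direction and side of the threshold and 22 reversed. EPAS1 turned to 0.0117 in stimulated against control under quantile normalisation, and between the treated groups to 0.0919 with the mean over probe sets and 0.240 on probe sets without an open run. LDHA on such probe sets turned to 0.194 in stimulated against control and -0.180 between the treated groups. These values come from its other probe sets. Without single arrays, in the order stimulated against control, superovulated against control and superovulated against stimulated, EPAS1 ranged from -0.198 to 0.111, from -0.253 to 0.0397 and from -0.170 to 0.00905, and PDK4 from -0.58 to 0.48, from -0.48 to 0.58 and from -0.33 to 0.60. HIF1A ranged from -0.0179 to 0.0796 in superovulated against control, LDHA from -0.200 to 0.0415 in stimulated against control, and SLC2A1 from -0.323 to 0.0880 there and from -0.21 to 0.20 between the treated groups. The cause of these changes was not tested. Dim signals, such as those of PFKFB1, ENO2, EGLN3 and SLC2A3, limit what a difference can show.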
